A study of Rattus norvegicus with 12 samples.

Results

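Mup4, LOC259244, Rup2 and LOC100360095 are 4 genes for urinary proteins that the rat liver makes, and they were taken by name from the feature list of the snRNA-seq libraries, in which they are 4 of 30248 gene names. The rule that names them uses no measured value. They occupy 5 of 32883 gene entries, since Mup4 is the name of both ENSRNOG00000050499 and ENSRNOG00000033130. The second entry had between 0 and 0.58 counts per 1000000 UMIs in every library, so Mup4 is hereafter the first. LOC259244 is ENSRNOG00000009273, Rup2 is ENSRNOG00000045799 and LOC100360095 is ENSRNOG00000043131. The genes were followed in hepatocytes by strain, platform and lobular zone, by their rank among all transcripts, and in the reads found with other cells.

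The data are single-cell (scRNA-seq), single-nucleus (snRNA-seq) and spatial RNA counts from livers of healthy male rats with no treatment. Total liver homogenate (TLH) cells came from 2 Dark Agouti (DA) and 2 Lewis (LEW) rats after collagenase digestion, and nuclei from another 2 rats of each strain. Immune-enriched cells, which were washed further and depleted of red blood cells, came from 1 rat of each strain, and Visium spots from 2 sections of Wistar liver. The design text gives an age of 8 to 10 weeks for the TLH rats, whereas the names of the deposited tables give 10 weeks for the DA and 13 weeks for the LEW livers. The study's methods give yet another age and describe the strains as matched in age, so the sources differ and the ages of the TLH rats are uncertain. No age was given in the labels for the nuclei and Visium rats. TLH libraries were made with 10x 3′ v2 chemistry and sequenced on a HiSeq, and the immune-enriched and nuclei libraries with v3 on a NovaSeq. Cells against nuclei is therefore also a comparison of chemistry, sequencer, tissue preparation and rats.

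Alpha-2u globulins, the products of the Mup genes, are small lipocalins that bind volatile ligands in a central pocket. In the male rat, hepatocytes secrete them in large amounts, the kidney filters them and they leave in the urine, where they act in scent signalling. Their transcription in liver is known to depend on androgen, growth hormone, glucocorticoid and thyroid hormone and to differ sharply between the sexes. Rup2 encodes rat urinary protein 2, another small secreted protein found in urine. In RefSeq LOC259244 has the symbol Mup4l4, after Mup4, and LOC100360095 the synonym Rup-4, and nothing further on their roles was used here.

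The sequences just upstream of the 4 genes separate them into pairs, which is why they are shown here before the values. They were taken from RefSeq, GRCr8, which is not the build 6.0 of the count tables, and all lie on the minus strand. All 4 genes matched an entry, LOC259244 through its gene identifier. Each line gives the 250 bases before the annotated start of a gene, 5′ to 3′, with matches to the motifs named afterwards in capitals.
Mup4 (chr5:79759497-79759746): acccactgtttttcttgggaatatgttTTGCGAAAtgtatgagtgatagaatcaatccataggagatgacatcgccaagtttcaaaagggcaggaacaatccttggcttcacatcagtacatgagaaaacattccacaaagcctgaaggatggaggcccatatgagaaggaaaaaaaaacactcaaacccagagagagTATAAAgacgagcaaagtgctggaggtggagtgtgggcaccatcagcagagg
LOC259244 (chr5:79707808-79708057): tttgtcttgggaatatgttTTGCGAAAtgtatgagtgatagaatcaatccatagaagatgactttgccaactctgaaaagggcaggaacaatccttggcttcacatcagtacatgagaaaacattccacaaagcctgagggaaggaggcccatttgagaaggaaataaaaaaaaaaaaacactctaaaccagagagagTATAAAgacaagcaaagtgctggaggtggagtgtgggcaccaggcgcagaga
Rup2 (chr8:43551457-43551706): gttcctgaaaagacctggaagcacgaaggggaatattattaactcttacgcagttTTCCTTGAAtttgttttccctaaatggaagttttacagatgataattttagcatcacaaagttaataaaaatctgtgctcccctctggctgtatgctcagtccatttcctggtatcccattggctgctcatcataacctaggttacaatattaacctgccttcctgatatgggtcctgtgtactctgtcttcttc
LOC100360095 (chr8:42933868-42934117): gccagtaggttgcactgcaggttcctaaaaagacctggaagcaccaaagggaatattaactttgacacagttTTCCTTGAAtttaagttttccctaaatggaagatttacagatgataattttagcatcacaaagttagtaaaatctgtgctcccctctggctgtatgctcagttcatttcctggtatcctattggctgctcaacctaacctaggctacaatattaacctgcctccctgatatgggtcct
The Mup4 and LOC259244 sequences were 87.2% identical over their alignment and those of Rup2 and LOC100360095 79.0%, against 42.2% to 48.1% for the other pairings. Mup4 and LOC259244 lie on chromosome 5 and both hold TATAAA, a core promoter motif, at base −52 from the start, which 12.9% of 33469 rat promoters of the same kind hold. Both also hold TTGCNNAA, a C/EBP-type motif, at −223 in Mup4 and −231 in LOC259244, found in 9.22% of promoters. Rup2 and LOC100360095 lie on chromosome 8 and hold TTCNNNGAA, a STAT motif, at −195 and −178, found in 7.67% of promoters. AGAACA, a steroid hormone receptor motif, was in 0 of the 4 sequences and in 17.5% of promoters. Both strands were searched and no match overlapped another kind of match. These letters are a description of the windows and not a measurement of binding.

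The genes listed as the urinary protein family were kept out of the clustering. Hepatocyte-like barcodes were those in clusters whose leading genes included at least 3 of 27 hepatocyte markers. They numbered 15987 of 23036 kept TLH cells, 10518 of 12525 kept nuclei and 1855 of 3840 kept immune-enriched cells, and Visium gave 4841 spots, each a small region that can hold several cells. Median UMIs (unique molecular identifiers, 1 per captured transcript) per kept barcode were 1794 to 2546 in TLH, 1542 to 2059 in nuclei and 4090 to 5581 in immune-enriched libraries, and 13773 and 14241 per spot. The separation of hepatocyte-like barcodes from the rest was shallow in TLH, where between 2 and 13 of the 27 markers were at least 1.5-fold above the other named classes, and it was 12 to 23 of 27 in nuclei and 27 of 27 in both immune-enriched libraries. Pairs of nuclei libraries shared 8 to 24 barcodes. The immune-enriched libraries had 72.6% (DA) and 41.8% (LEW) mitochondrial UMIs over all barcodes. The comparison of these libraries with other cell classes takes all their hepatocyte-like cells, 241 in DA and 1614 in LEW. Levels, spreads and zones below use their hepatocyte-like cells with at least 10000 UMIs, 117 in DA and 834 in LEW. This limit was set after the data had been seen. Per the study's methods, parenchymal cells had been depleted from these samples by centrifugation, so the deep cells are those that were left. Their median mitochondrial shares were 29.2% to 33.7% in the zone groups used below, against 2.79% to 13.9% in those of TLH cells and nuclei, and the part of this in their levels was not tested.

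The 4 genes kept 1 order of level in 12 of 12 libraries, with Rup2 highest, then LOC100360095, LOC259244 and Mup4. Levels are given as CPM, the UMIs of a gene per 1000000 UMIs of the same barcodes, and 3′ UMI counts do not grow with transcript length. In TLH hepatocytes Rup2 stood at 18530 and 14741 CPM in DA 1 and DA 2, and at 14633 and 20345 CPM in LEW 1 and LEW 2. The lowest and the highest of these were both LEW rats, and the strains overlapped. In nuclei Rup2 stood at 7628, 8318, 10863 and 5638 CPM in the same order. All 4 nuclei values lay under all 4 TLH values. The deep immune-enriched hepatocytes had 8997 CPM in DA and 10259 CPM in LEW, and the Visium sections 6625 and 5427 CPM.

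LOC100360095 was the second of the 4 in the pooled level of each library, though not in the medians over single deep cells given below. Its levels were 7829, 7193, 7200 and 8646 CPM in TLH cells of DA 1, DA 2, LEW 1 and LEW 2, and 3929, 4028, 5724 and 3250 CPM in nuclei. Again LEW held the highest TLH value and both ends of the nuclei range, and no nuclei value reached a TLH value. The deep hepatocytes had 3230 CPM (DA) and 2343 CPM (LEW), and the sections 5200 and 4980 CPM, which put this gene nearest to Rup2 in the spatial data. The ratio of Rup2 to LOC100360095 ran from 1.09 to 4.38 with a median of 2.04.

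The alpha-2u globulin genes were lower. LOC259244 had 2204, 2017, 1471 and 1845 CPM in the TLH cells of DA 1, DA 2, LEW 1 and LEW 2, and 2655, 2323, 2252 and 1666 CPM in the nuclei. Both DA rats lay above both LEW rats on each platform, narrowly for nuclei. In the deep hepatocytes it had 849 CPM (DA) and 1274 CPM (LEW), the opposite order, and in the sections 1541 and 1401 CPM. Mup4 had 389, 280, 170 and 260 CPM in TLH cells and 532, 519, 506 and 470 CPM in nuclei. The DA rats were again above the LEW rats in both, by little in nuclei, and every nuclei value was above every TLH value. The deep hepatocytes had 121 CPM (DA) and 163 CPM (LEW) of Mup4 and the sections 360 and 415 CPM. Between neighbours in the order, the ratio of LOC100360095 to LOC259244 ran from 1.48 to 4.89 and that of LOC259244 to Mup4 from 3.38 to 8.65, while Rup2 exceeded Mup4 by 12.0-fold to 86.0-fold.

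**Figure D1:**
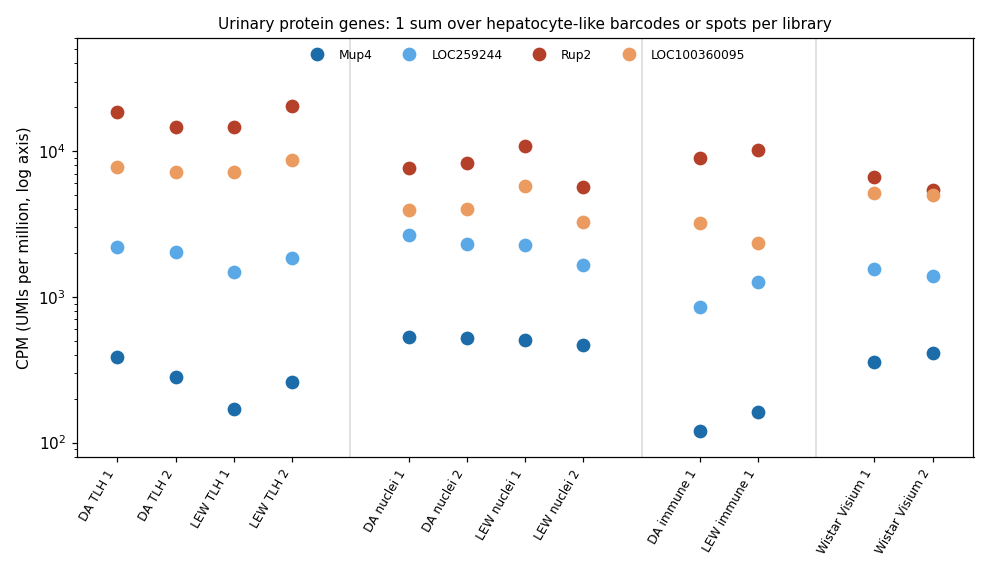
Level of each gene in CPM (log axis) in each of 12 libraries, 1 point per gene and library, from hepatocyte-like cells or nuclei, deep hepatocyte-like cells for the immune-enriched libraries, and all spots for Visium. The points keep the order Rup2, LOC100360095, LOC259244, Mup4 in every library, and Rup2 lies at 14633 to 20345 CPM in TLH cells and at 5638 to 10863 CPM in nuclei.

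In rank among all gene entries, Rup2 had ranks 5 to 10 in TLH hepatocytes, where 13724 entries had at least 1 UMI in DA 1, and ranks 9 to 24 elsewhere. LOC100360095 had ranks 16 to 20 in TLH cells and 19 to 46 elsewhere. LOC259244 had ranks 55 to 109 in TLH cells and 44 to 119 elsewhere, and Mup4 ranks 245 to 740 over all 12 libraries. Together the 4 genes gave 2.90%, 2.42%, 2.35% and 3.11% of all UMIs of TLH hepatocytes, 1.47%, 1.52%, 1.93% and 1.102% in nuclei, 1.32% and 1.40% in the deep hepatocytes and 1.37% and 1.22% in the sections. For scale, Alb, the gene of serum albumin, stood at 25354 to 31463 CPM in TLH cells, above the highest Rup2 level in these cells. The levels of the 4 genes are those of uniquely counted reads, and near-identical copies in the Mup cluster can share or lose reads, so the split between copies is uncertain.

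Single deep hepatocytes showed how unevenly the genes were spread. Among the 117 DA cells, the 5th percentile, the median and the 95th percentile of Rup2 were 317, 7188 and 20231 CPM, and among the 834 LEW cells 1813, 8899 and 20181 CPM. LOC100360095 covered a far wider range, with a median of 30.8 CPM and a 95th percentile of 11609 CPM in DA, and 483 CPM and 10663 CPM in LEW. No other of the 4 genes had its median so far under its upper percentiles. Only 54.7% of the DA cells (64 of 117, exact binomial 95% interval 45.2% to 63.9%) had any UMI of LOC100360095, against 92.3% of the LEW cells (770 of 834, 90.3% to 94.04%), at median depths of 40333 and 38284 UMIs. In T/NK cells of the same libraries, which should lack the gene, 13.2% (DA) and 69.8% (LEW) of the cells had a UMI at median depths of 4068 and 4233 UMIs, so the background also differed between the libraries and the gap is not read as a strain difference. These shares come from 1 rat per strain and the intervals cover counting error only.

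LOC259244 was found in 98.3% of the DA and 99.3% of the LEW deep cells, with medians of 356 and 824 CPM, and Mup4 in 85.5% and 93.2%, with medians of 65.9 and 124 CPM. Rup2 was found in 97.4% and 100% of them. Across cells the 2 alpha-2u globulins and LOC100360095 rose and fell together more than Rup2 did with any of them. Pearson's r of the log levels was 0.85 in the DA cells and 0.75 in the LEW cells for Mup4 with LOC259244, 0.76 and 0.64 for Mup4 with LOC100360095, and 0.82 and 0.74 for LOC259244 with LOC100360095. For Rup2 it was 0.46 and 0.31 with Mup4, 0.60 and 0.45 with LOC259244, and 0.56 and 0.37 with LOC100360095. The cells of a strain share 1 library and carry no test.

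**Figure D2:**
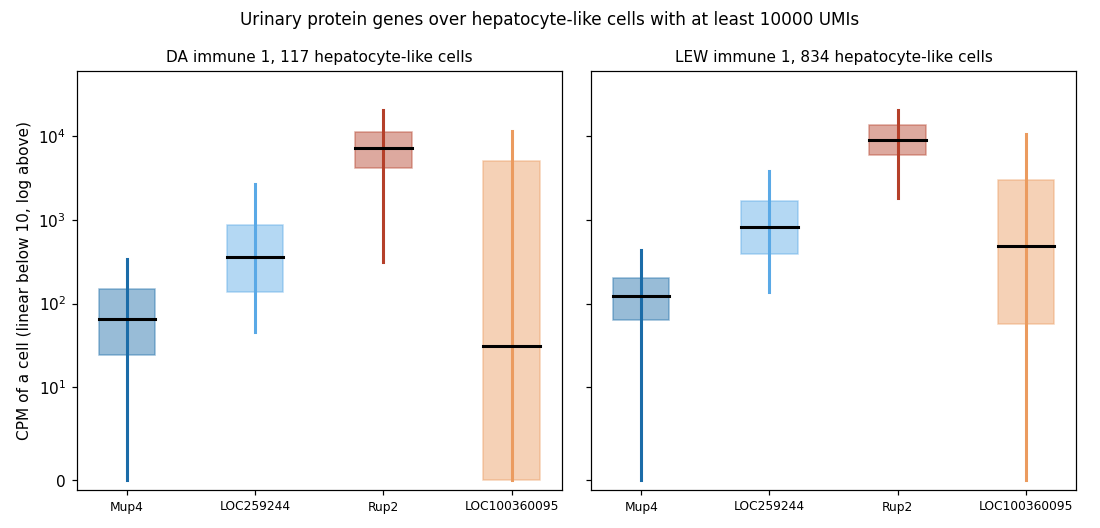
Spread of each gene over hepatocyte-like cells with at least 10000 UMIs in the DA (117 cells) and LEW (834 cells) immune-enriched libraries, in CPM per cell on an axis that is linear under 10 and logarithmic above. Boxes span the 25th to the 75th percentile with the median as a black line and whiskers from the 5th to the 95th, and the LOC100360095 box of the DA library runs from 0 to 5061 CPM around a median of 30.8 CPM.

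Next, the genes were followed along the lobule, from the pericentral hepatocytes around the central vein to the periportal ones. Each barcode was given a score from pericentral genes (Cyp2e1, Glul, Oat, Sult1e1, Cyp1a2, and Axin2 where it was detected often enough) minus periportal genes (Ass1, Arg1, Gls2, Hal, Sds, Pck1, Hmgcs1, Tf, Orm1), and each library was divided by it into 3 groups of equal size, pericentral, middle and periportal. None of the 4 urinary protein genes is in the score. All 4 were higher in the pericentral than in the periportal group of nuclei in 4 of 4 rats, and the order of the fitted zone differences was Mup4, LOC259244, LOC100360095 and Rup2, the reverse of the order of level, although in LEW nuclei 1 the difference of LOC100360095 (1.06) exceeded that of LOC259244 (0.94).

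In the pericentral group, Mup4 stood at 1165, 1238, 768 and 940 CPM in nuclei of DA 1, DA 2, LEW 1 and LEW 2, against 140, 110, 303 and 178 CPM in the periportal group. The middle group lay between in each rat, at 339 to 487 CPM. Every pericentral value exceeded every periportal one, and the DA rats had both the highest pericentral and the lowest periportal values. In the other named cell classes of these libraries, compared further below, Mup4 stood at 258, 307, 470 and 407 CPM, above each rat's periportal group. The part of this background in the zone differences was not tested. The fitted difference, pericentral minus periportal, was 2.86 on the log2 scale (SE 0.29, adjusted p = 3.9e-07, edgeR quasi-likelihood test with the rat as block and Benjamini-Hochberg adjustment over 9070 genes).

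LOC259244 stood at 5729, 5215, 2976 and 2819 CPM in the pericentral group and 812, 725, 1555 and 930 CPM in the periportal group, again without overlap. Its fitted log2 difference was 2.35 (SE 0.31, adjusted p = 1.3e-05). LOC100360095 stood at 7794, 7085, 7568 and 4907 CPM against 1334, 1648, 3642 and 1905 CPM. The values did not overlap, and the fitted log2 difference was 2.06 (SE 0.27, adjusted p = 1.6e-05). Rup2 stood at 11188, 10384, 11406 and 6743 CPM against 4501, 5730, 9316 and 4600 CPM. Here the groups overlapped between rats, since the periportal group of LEW 1 was above the pericentral group of LEW 2, although each rat's own pericentral group was the higher. Its fitted log2 difference was 1.05 (SE 0.25, adjusted p = 0.0038).

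All 4 genes thus passed the threshold of 0.05 in the pericentral direction, where 16.9% of all genes tested did (30.7% in either direction, 1536 up and 1252 down). Scaling by total UMIs in place of the trimmed mean of M values (TMM) moved that split to 692 up and 2766 down and shifted the median of all genes to −0.34, and the 4 genes were called, as were 38.1% of all genes, at 2.56 (Mup4), 2.05 (LOC259244), 1.76 (LOC100360095) and 0.75 (Rup2). The call of Rup2 was lost without the block (1.00, adjusted p = 0.17) and without DA nuclei 2 (0.99, adjusted p = 0.089). Periportal nuclei were deeper, with median UMIs of 2146, 2304, 1698 and 2164 against 1302, 1439, 1381 and 1795 in the pericentral groups of DA 1, DA 2, LEW 1 and LEW 2. With the groups formed within each of 10 bins of nuclei by UMIs, which matches their median UMIs but not their total, all 4 were still called at 2.45, 1.84, 1.69 and 0.68 in the order Mup4, LOC259244, LOC100360095, Rup2, where 24.8% of genes were called in either direction. Markers of other liver cell types (89 genes summed) stood at 1144 to 1594 CPM in the pericentral and 776 to 1486 CPM in the periportal groups and were higher in the pericentral group of each rat. Their part in the result was not tested.

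**Figure D3:**
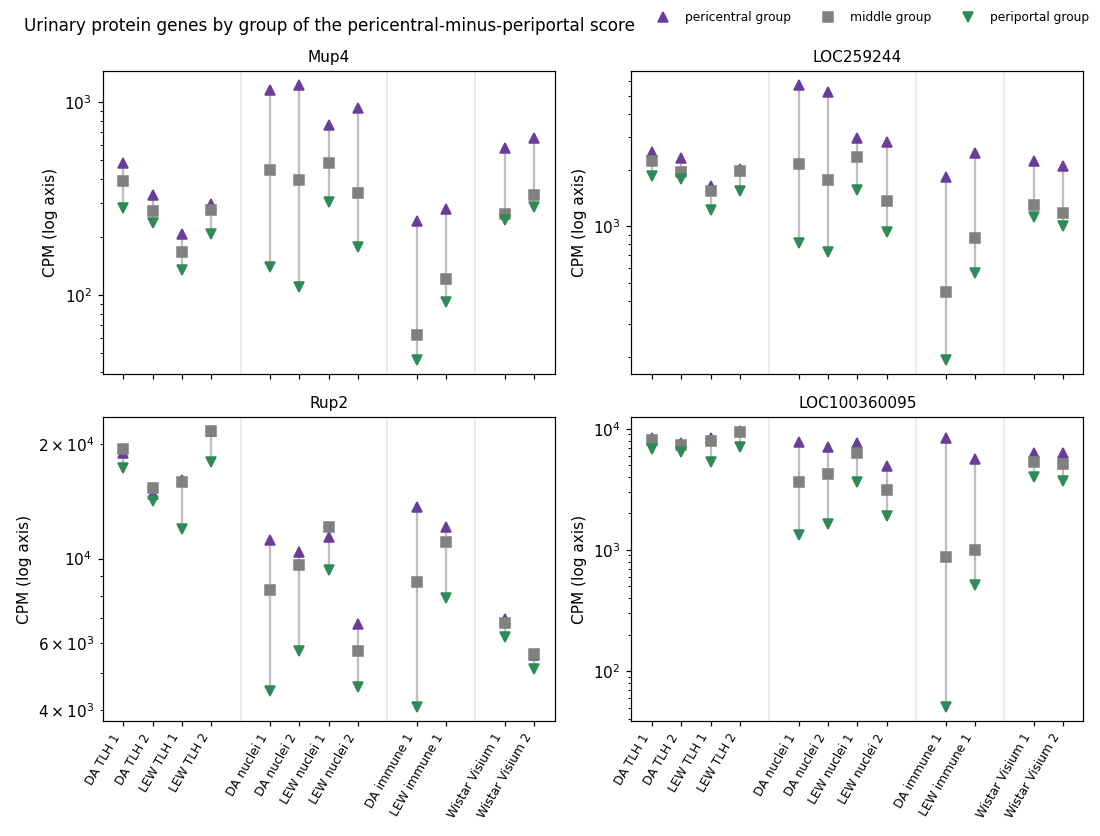
Level of each gene in CPM (log axis) in the pericentral, middle and periportal group of the barcodes or spots of each of 12 libraries, with a grey line joining the groups of 1 library. In nuclei the pericentral and periportal points of Mup4 lie between 768 and 1238 CPM and between 110 and 303 CPM, whereas in TLH cells the groups of all 4 genes lie close together.

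Among the other lists in nuclei, secreted plasma protein genes also leaned to the pericentral group. Without Tf, which is in the score, 11 of 14 plasma protein genes tested rose and 0 fell, with a median log2 difference of 0.91 against −0.06 over all genes. Examples are Apoa2 (1.87), Apoe (1.36), Rbp4, the retinol carrier (1.03), and Ttr, the thyroid hormone and retinol carrier (1.00). These counts come from groups of all nuclei, which differ in depth. The genes of the list, Tf included, summed to 170920, 131520, 174830 and 123260 CPM pericentrally and 81525, 85899, 166480 and 90877 CPM periportally in DA 1, DA 2, LEW 1 and LEW 2. With groups formed within the 10 bins by UMIs the sums were 148530, 115530, 171130 and 114350 CPM against 99587, 98380, 171990 and 98731 CPM, so that the lean was smaller in each rat and not seen in LEW 1. Alb, the most abundant plasma protein, differed by 0.75, 0.36, −0.14 and 0.29 on the log2 scale in groups of all nuclei and by 0.31, −0.046, −0.23 and 0.00023 within the bins. Tf itself, a periportal gene of the score, was higher in the pericentral group (0.78, adjusted p = 0.026). Of 4 male-biased enzyme genes tested 3 rose and 0 fell, among them Cyp2c11 (0.98, adjusted p = 0.0024), the male-specific steroid hydroxylase of rat liver. Of 4 female-biased genes 2 rose and 2 fell, with Cyp2c7 falling by 2.52. Of 15 hormone signalling genes 1 rose and 4 fell, including Esr1, an oestrogen receptor (−1.03), Prlr, the prolactin receptor (−1.05), and Socs2, a target of growth hormone signalling (−0.88). Of 10 liver transcription factor genes 0 rose and 3 fell, namely Onecut1 (−1.24), Foxa1 (−0.78) and Nfib (−0.55). Since 30.7% of all genes were called in either direction, the counts of the hormone signalling and transcription factor lists were near that background.

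In TLH cells the same direction was seen with a much smaller size. Mup4 had 485, 331, 208 and 299 CPM in the pericentral group of DA 1, DA 2, LEW 1 and LEW 2 and 283, 237, 136 and 207 CPM in the periportal group. Each rat's pericentral group was the higher, but the rats overlapped. The fitted log2 difference was 0.57 (SE 0.07, adjusted p = 1.6e-08). LOC259244 had 2503, 2311, 1650 and 2029 CPM against 1863, 1788, 1222 and 1545 CPM, a log2 difference of 0.37 (SE 0.07, adjusted p = 7.0e-05). LOC100360095 had 8453, 7694, 8384 and 9580 CPM against 6875, 6464, 5353 and 7080 CPM, a log2 difference of 0.37 (SE 0.07, adjusted p = 1.8e-04). Both were higher pericentrally in 4 of 4 rats.

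Rup2 in TLH cells had 18914, 14796, 16099 and 21591 CPM in the pericentral and 17268, 14127, 11972 and 17920 CPM in the periportal group, and its log2 difference of 0.19 (SE 0.07) had an adjusted p of 0.11, although it was called without DA TLH 2 (0.24, adjusted p = 0.044) and by DESeq2 (0.19, adjusted p = 0.041). So 3 of the 4 genes were called, against 2.27% of all genes in this direction (5.88% in either, 192 up and 306 down). Scaling by total UMIs turned the split of all calls to 292 up and 230 down. Without the block for the rat none of the 4 was called. Among the score genes Glul was flatter in TLH cells, where it differed by 2.44 between the groups against 5.23 in nuclei, as a description. Of 15 genes of the score list tested, 5 were called higher pericentrally and 9 lower in TLH cells. In nuclei these counts were 7 and 5, so Glul does not stand for the whole score. Plasma protein genes did not follow the urinary protein genes here, for without Tf 1 of 14 rose and 7 fell (median −0.21), Alb among them (−0.60). Nor did the male-biased enzyme genes, of which 0 of 4 tested rose and 1 fell (median −0.23), unlike in nuclei. The periportal groups had the larger mitochondrial shares, 7.63% to 13.3% against 6.38% to 8.48% pericentrally. Markers of other liver cell types (89 genes summed) stood at 2158, 2233, 2059 and 3635 CPM pericentrally and 2131, 1993, 1601 and 2441 CPM periportally in DA 1, DA 2, LEW 1 and LEW 2, the higher value being pericentral in 4 of 4 rats. The part of the mitochondrial shares and of these markers in the result was not tested.

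The deep hepatocytes of the immune-enriched libraries, with 39 DA and 278 LEW cells per group, gave the largest zone contrast of LOC100360095 in the series, a description of 1 rat per strain without a test. LOC100360095 had 8348 CPM (exact Poisson 95% interval 8210 to 8488) in the pericentral group of the DA cells, 875 CPM in the middle and 50.6 CPM (39.8 to 63.5) in the periportal group, and in LEW cells 5683 (5636 to 5730), 993 and 518 (505 to 532) CPM. The DA values depended on how the cells were grouped. Within 10 bins of cells by UMIs, LOC100360095 had 7431, 1771 and 216 CPM in the pericentral, middle and periportal DA cells, a contrast of 34.4-fold in place of 165-fold, and 5267, 1304 and 415 CPM in LEW cells, 12.7-fold in place of 10.97-fold. LOC259244 went from 1824 (1760 to 1890) to 192 (170 to 215) CPM in DA and from 2458 (2428 to 2489) to 563 (549 to 578) CPM in LEW cells. Mup4 went from 244 (221 to 269) to 45.9 (35.7 to 58.2) CPM and from 282 (271 to 292) to 92.3 (86.6 to 98.1) CPM. Rup2 went from 13650 (13473 to 13829) to 4083 (3981 to 4187) CPM and from 12065 (11997 to 12133) to 7866 (7813 to 7919) CPM. The intervals cover counting error only. Alb ran the other way, from 26420 CPM pericentrally to 49840 CPM periportally in DA and from 34229 to 61271 CPM in LEW cells.

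In the Wistar sections the spots showed the same order without Rup2 taking much part. Mup4 had 578 and 655 CPM in the pericentral group of spots of sections 1 and 2 and 245 and 286 CPM in the periportal group, which is 1.24 and 1.19 on the log2 scale. LOC259244 differed by 0.99 and 1.06 and LOC100360095 by 0.67 and 0.77, all larger than the differences of Rup2, which were 0.16 and 0.12. No test was run on the 2 sections, whose values are a description. A higher share of hepatocytes in a spot and more RNA per hepatocyte cannot be told apart in such data. Over 2437 and 2404 spots, Pearson's r with the score was 0.43 and 0.44 for Mup4, 0.57 and 0.55 for LOC259244, 0.48 and 0.41 for LOC100360095, and 0.07 and 0.01 for Rup2. The level of Rup2 went instead with the UMIs per spot (0.43 and 0.49), as did the others to a smaller extent (0.16 to 0.27). For comparison, Cyp2e1, a gene of the score, differed by 0.87 and 0.96 and Alb by −0.24 and −0.28.

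The genes closest to each of the 4 over spots, by mean Pearson's r of log counts over the 2 sections among 7252 genes, also paired 3 genes and set Rup2 apart. AABR07048474.1 (ENSRNOG00000050595) was nearest to Mup4 (0.48), LOC259244 (0.63) and LOC100360095 (0.62). Mup4 was followed by LOC259244 (0.45), LOC501233 (0.40), LOC100910877 (0.40) and Oat (0.39), an ornithine aminotransferase gene that is in the score. LOC259244 was followed by LOC100910877 (0.51), LOC501233 (0.50), LOC100360095 (0.47) and Oat (0.46). LOC100360095 was followed by LOC100910877 (0.61), Apoa2 (0.56), Scd, the stearoyl-CoA desaturase gene (0.55), and LOC501233 (0.55). Rup2 was nearest to LOC680406 (0.65), Mgst1 (0.44), Hrg (0.42), Pzp (0.40) and Ftl1 (0.38). All spots of a section share a library, and the sections are points of 2 libraries only.

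The neighbours named first were themselves among the most abundant transcripts. Whether AABR07048474.1 and LOC680406 are further copies of the urinary protein genes is not given in the sources used here, so they may share reads with the 4 genes and are not taken as independent of them. LOC680406 stood at 27180 to 35817 CPM in TLH hepatocytes, where its rank was 1 or 3, and at 19366 to 21900 CPM in nuclei, and its log2 zone difference in the sections was 0.02 and −0.03, like the small difference of Rup2. AABR07048474.1 stood at 16199 to 21784 CPM in TLH cells and 17164 to 26552 CPM in nuclei, with log2 zone differences of 0.51 and 0.48 in the sections. LOC298111, from the list of other urinary protein family genes, was low, at 21.9 to 159 CPM.

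Whether DA and LEW hepatocytes differ in these genes was asked first in TLH cells. Mup4 was 334 ± 76.6 CPM in DA and 215 ± 63.3 CPM in LEW (mean ± SD, n = 2), and the rats did not overlap, nor did they for LOC259244 at 2111 ± 133 and 1658 ± 264 CPM. Rup2 was 16636 ± 2679 and 17489 ± 4039 CPM and LOC100360095 7511 ± 449 and 7923 ± 1023 CPM, with overlap in both. The log2 differences, DA minus LEW, were 0.60 (SE 0.24, adjusted p = 0.23, edgeR) for Mup4, 0.32 (SE 0.15, adjusted p = 0.27) for LOC259244, −0.11 (SE 0.19, adjusted p = 0.80) for Rup2 and −0.11 (SE 0.14, adjusted p = 0.71) for LOC100360095. So 0 of the 4 genes were called by edgeR, and 0 by DESeq2, where 4.08% of 9848 genes were by edgeR. An unadjusted p under 0.05 was found for 1 of the 4, Mup4 (0.046, edgeR), and for 2060 of the 9848 genes. Mup4 was called with no filter on low counts (0.61, adjusted p = 0.0015) and with clusters named by a stricter rule (0.79, adjusted p = 0.015). It was also called with a block that pairs the rats crosswise by number (0.62, adjusted p = 0.014, edgeR). That pairing has no basis in the design and was chosen after seeing the data. It called 905 of 9848 genes against 402, so its call of Mup4 is not read as support. Leaving out 1 rat at a time moved Mup4 between 0.33 (without LEW TLH 1) and 0.95 (without LEW TLH 2) and LOC259244 between 0.16 and 0.50 in the same 2 fits, none of them called.

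In nuclei the strain differences were small against their errors. Mup4 was 525 ± 9.64 CPM in DA and 488 ± 25.1 CPM in LEW, LOC259244 2489 ± 234 and 1959 ± 414 CPM, Rup2 7973 ± 488 and 8251 ± 3695 CPM, and LOC100360095 3978 ± 69.9 and 4487 ± 1750 CPM. The LEW rats spread far more than the DA rats in the last pair. The log2 differences were 0.05 (SE 0.43, adjusted p = 0.98) for Mup4, 0.27 (SE 0.47, adjusted p = 0.91) for LOC259244, −0.15 (SE 0.51, adjusted p = 0.96) for Rup2 and −0.27 (SE 0.50, adjusted p = 0.92) for LOC100360095 (edgeR). None of the 4 was called by edgeR or DESeq2, where 1.18% of 10331 genes were by edgeR. None had an unadjusted p under 0.05, where 933 of the 10331 genes did (edgeR). The standard errors, 0.43 to 0.51, were larger than each difference.

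Some genes of the hormone, sex-biased and transcription factor lists were called between the strains, mostly on 1 platform. No strain-by-platform interaction was called (0 of 11473 genes, edgeR), so a call on 1 platform alone is not read as a difference between platforms. Cyp4a2, a male-biased fatty acid hydroxylase, was higher in DA in TLH cells (3.59, adjusted p = 0.024) and in nuclei (4.10, adjusted p = 0.0023). In TLH cells Socs2 (−2.42, adjusted p = 6.2e-04) and Cyp2c7 (−1.90, adjusted p = 8.8e-04) were lower in DA, and Cyp2c12, the female-predominant steroid hydroxylase (4.46, adjusted p = 4.0e-05), and Cebpb, a liver transcription factor (0.98, adjusted p = 0.024), were higher (edgeR). In nuclei these 4 were not called, at −2.17 (adjusted p = 0.51) for Socs2, 0.54 (adjusted p = 0.80) for Cyp2c7, 1.93 (adjusted p = 0.085) for Cyp2c12 and 0.64 (adjusted p = 0.77) for Cebpb, so the value of Cyp2c7 had the opposite sign there. Its strain difference was 2.48 greater in nuclei than in TLH cells, which was not called (adjusted p = 0.21). Over the lists in TLH cells, 2 of 15 hormone signalling genes, 1 of 4 male-biased, 2 of 4 female-biased, 1 of 10 transcription factor and 0 of 15 plasma protein genes were called, where 4.08% of all genes were. In nuclei 1 of 16 hormone signalling genes, 1 of 4 male-biased and none of the female-biased, transcription factor or plasma protein genes were called, where 1.18% of all genes were.

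The zone difference itself differed between the strains in nuclei when groups of all nuclei were compared. Pericentral minus periportal, Mup4 differed by 3.06 and 3.49 on the log2 scale in DA 1 and DA 2 and by 1.34 and 2.40 in LEW 1 and LEW 2, LOC259244 by 2.82 and 2.85 against 0.94 and 1.60, LOC100360095 by 2.55 and 2.10 against 1.06 and 1.37, and Rup2 by 1.31 and 0.86 against 0.29 and 0.55. In each gene both DA rats lay above both LEW rats. The interaction of strain and zone was 1.63 (SE 0.30, adjusted p = 0.0035) for Mup4, 1.78 (SE 0.28, adjusted p = 9.9e-04) for LOC259244, 1.33 (SE 0.28, adjusted p = 0.013) for LOC100360095 and 0.87 (SE 0.28, adjusted p = 0.098) for Rup2 (edgeR), so 3 of the 4 were called as greater in DA, where 0.794% of 9070 genes were (0.937% in either direction). Scaling by total UMIs turned the split of all calls from 72 greater in DA and 13 greater in LEW to 37 and 92, while Mup4 (1.42, adjusted p = 0.0040), LOC259244 (1.56, adjusted p = 5.0e-04) and LOC100360095 (1.11, adjusted p = 0.026) were still called and Rup2 (0.66, adjusted p = 0.17) was not.

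These calls were lost in groups formed by depth and, with 1 rat left out, depended on which rat it was. The values stayed above 0 in each of these fits. With the groups formed within each of 10 bins of nuclei by UMIs, the interactions were 1.23, 1.22, 0.84 and 0.46 for Mup4, LOC259244, LOC100360095 and Rup2, with adjusted p of 0.18, 0.063, 0.20 and 0.53 (edgeR), and 1 of 8936 genes (0.0112%) was called. The gap in depth between the groups was also wider in the DA rats, as the medians above show, and its part in the interaction beyond this value was not tested. Without LEW nuclei 1 the interactions were 1.12, 1.48 and 1.20 for Mup4, LOC259244 and LOC100360095, and without LEW nuclei 2 they were 2.21, 2.17 and 1.54. Without DA nuclei 1 the 3 genes stood at 1.84, 1.76 and 1.08, and without DA nuclei 2 at 1.501, 1.84 and 1.62, with Rup2 then at 1.18. In each of these fits 1 rat of a strain remains and is taken to vary like the rats of the other, so only the sizes are given. The deep hepatocytes had the same direction, with a DA difference of 2.41 and a LEW difference of 1.61 for Mup4, 3.25 and 2.13 for LOC259244, 7.37 and 3.46 for LOC100360095, and 1.74 and 0.62 for Rup2, from 1 rat each and untested. Within 10 bins of these cells by UMIs the values were 2.38 and 1.61, 3.06 and 2.09, 5.11 and 3.67, and 1.49 and 0.65 in the same order, so the gap for LOC100360095 was much smaller. The background was also unequal, for other classes of the immune-enriched libraries had 33.3 (DA) and 254 CPM (LEW) of LOC100360095. In nuclei it was 48.5% and 59.3% of the hepatocyte level in DA against 92.9% and 86.5% in LEW for Mup4, while for the other genes the strains overlapped. The part of background in the gap between strains was not tested.

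**Figure D4:**
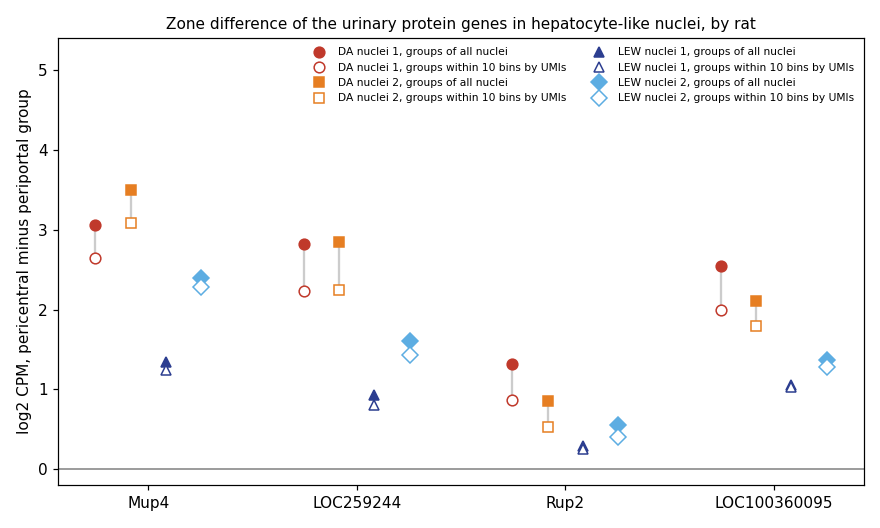
Log2 difference in CPM between the pericentral and periportal group of hepatocyte-like nuclei for each gene and rat, from groups of all nuclei (filled) and from groups formed within each of 10 bins of nuclei by UMIs (open). All points are above 0, and the step from filled to open is larger in DA rats (Mup4 3.06 to 2.65 in DA 1) than in LEW rats (1.34 to 1.25 in LEW 1).

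Between platforms 2 of the 4 genes were called, and the pairs were not tested against each other. Relative to TLH cells and with TMM, nuclei were lower in Rup2, with a log2 difference of −1.84 (SE 0.30, adjusted p = 9.0e-05, edgeR), and in LOC100360095, with −1.64 (SE 0.28, adjusted p = 1.2e-04), whereas LOC259244 at −0.54 (SE 0.24, adjusted p = 0.059) and Mup4 at 0.13 (SE 0.23, adjusted p = 0.63) were not called. LOC259244 was called as lower in nuclei without LEW nuclei 1 (−0.67, adjusted p = 0.0037), with a replicate block (−0.58, adjusted p = 0.047), by DESeq2 (−0.50, adjusted p = 0.026) and with all barcodes (−0.61, adjusted p = 0.025). So 2 of 4 were called as higher in TLH, where 33.5% of 10964 genes were, and 69.3% were called in either direction. Scaling by total UMIs moved the median of all genes from 0.06 to 0.87 and the calls from 3924 up and 3673 down to 6438 up and 1751 down (74.7% in either direction). Under it Rup2 stood at −1.07 (adjusted p = 4.6e-04) and LOC100360095 at −0.87 (adjusted p = 0.0010), while LOC259244 turned to 0.24 (adjusted p = 0.21) and Mup4 was called higher in nuclei (0.92, adjusted p = 7.9e-04), which is close to that median.

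The direction for Rup2 and LOC100360095 also rested on which cells were taken as hepatocytes. Under the stricter naming of clusters, which left TLH clusters with median mitochondrial shares of 14.1% and 19.8% as the only hepatocyte-like ones, Rup2 stood at 0.36 (adjusted p = 0.029) and LOC100360095 at 0.27 (adjusted p = 0.13), with Mup4 at 1.31 (adjusted p = 1.4e-06) and LOC259244 at 1.05 (adjusted p = 5.5e-07). In each of these fits Mup4 and LOC259244 both had a higher nuclei-minus-TLH value than Rup2 and LOC100360095. Of 15 plasma protein genes tested, 10 were called lower in nuclei with TMM and 0 higher, where 33.5% of all genes were called lower. Their median was −0.68 against 0.06 over all genes. The largest included Apoc1 (−2.08 for its entry with the larger change), Apoc3 (−1.71) and Apoa2 (−1.40). Cyp2c11 (−0.99) was also lower, as 1 of 4 male-biased genes tested. Whether the strain difference depended on the platform could not be shown for any of the 4 genes (edgeR adjusted p = 1.0 for each), with 0 of 11473 genes called, 454 with an unadjusted p under 0.05, and 10 called by DESeq2.

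The last question was how much of these transcripts was found with cells that should not make them. In TLH libraries the other named classes (endothelial, Kupffer, mesenchymal, T/NK and other immune cells) carried much of the hepatocyte level, from 58.4% to 93.0% of it. Rup2 in those classes stood at 92.7%, 83.6%, 75.7% and 68.9% of its hepatocyte CPM in DA 1, DA 2, LEW 1 and LEW 2, LOC100360095 at 93.0%, 84.6%, 78.1% and 71.7%, LOC259244 at 86.5%, 78.9%, 71.1% and 69.8%, and Mup4 at 63.7%, 69.4%, 69.7% and 58.4%. Both DA libraries were above both LEW libraries for all of these but Mup4. Of all Rup2 UMIs in the kept cells, 30.2%, 31.0%, 19.0% and 19.8% were in those classes, which held 31.7%, 34.9%, 23.5% and 26.3% of all UMIs. The share of this transcript was under the share of all UMIs in each library, narrowly in DA 1.

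The levels outside hepatocytes were lower in nuclei for most genes and far lower in the immune-enriched libraries. In nuclei the other classes had 57.6%, 47.4%, 36.1% and 69.2% of the hepatocyte CPM for Rup2, 58.7%, 52.4%, 49.3% and 82.4% for LOC100360095, and 45.4%, 40.4%, 43.3% and 74.4% for LOC259244, with LEW 2 the highest each time. Mup4 had 48.5% and 59.3% in DA and 92.9% and 86.5% in LEW nuclei. With each nucleus thinned to 1000 UMIs the median of Mup4 over the 4 libraries fell from 72.9% to 41.2%, near that of LOC259244 (42.4%). In the immune-enriched libraries Rup2 in the other classes had 0.839% (DA) and 10.4% (LEW) of the hepatocyte level, LOC100360095 1.05% and 10.5%, LOC259244 2.17% and 15.1%, and Mup4 10.96% and 24.1%. The DA library, the one with the larger mitochondrial share, had the lower value for each gene.

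**Figure D5:**
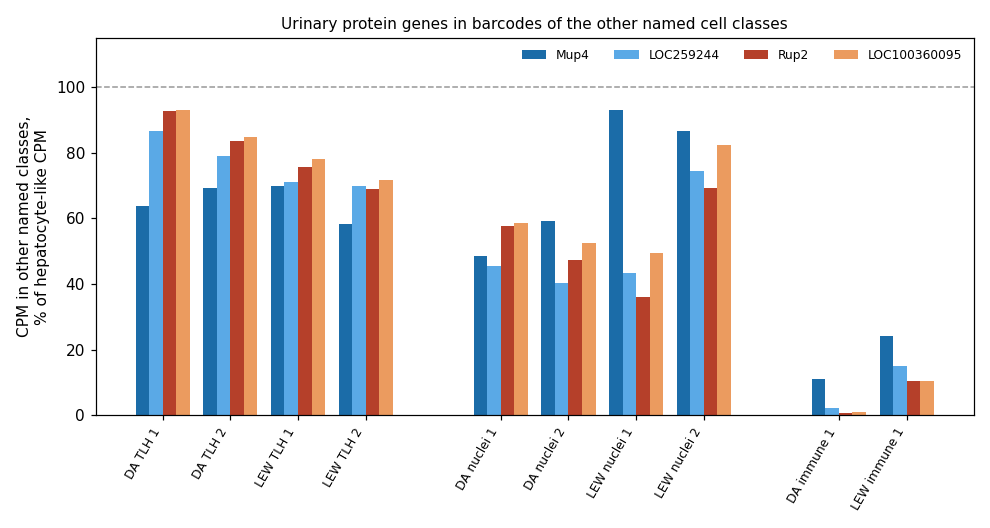
Level of each gene in barcodes of the other named classes as a percent of its level in hepatocyte-like barcodes of the same library, in CPM, with the dashed line at equal levels. Bars for Rup2 reach 68.9% to 92.7% in the 4 TLH libraries and 0.839% and 10.4% in the 2 immune-enriched libraries.

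T/NK cells, which do not make secreted liver proteins, give the background of a share of cells with a UMI. In TLH, 100% of T/NK barcodes had a Rup2 UMI in each of the 4 libraries, at median depths of 1702 to 2570 UMIs against 1820 to 2615 in hepatocytes, so that share is at background. Mup4 was found in 25.1%, 42.1%, 27.9% and 27.7% of T/NK barcodes and in 45.03%, 50.6%, 32.2% and 41.3% of hepatocyte-like ones. Thinned to 1000 UMIs each, with every barcode deep enough, these became 17.4%, 18.4%, 10.2% and 11.9% against 28.7%, 24.1%, 14.9% and 20.4%. Hepatocyte-like barcodes had the higher share in each library, with a narrow gap.

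In the immune-enriched libraries 23.6% of 242 DA T/NK cells had a Rup2 UMI (exact binomial 95% interval 18.4% to 29.4%) against 99.3% of 149 LEW T/NK cells (96.3% to 100%), at median depths of 4068 and 4233 UMIs. LOC100360095 was found in 13.2% and 69.8% of them, LOC259244 in 7.85% and 67.1%, and Mup4 in 5.37% and 22.1%. The LEW library thus carried more of all 4 in T/NK cells than the DA library at about equal depth, and the 2 libraries are 1 rat each. Per 100 Alb UMIs, Rup2 had 13.6 and 19.0 UMIs in DA and LEW T/NK cells against 23.9 and 21.5 in hepatocytes. Mup4 had 2.27 and 0.91 against 0.32 and 0.35. The DA value of Mup4 rests on the 5.37% of T/NK cells with a UMI of it, and no interval is given for these ratios. In TLH, Rup2 had 121, 53.7, 73.6 and 98.8 UMIs per 100 Alb UMIs in T/NK cells and 73.1, 47.8, 46.5 and 78.4 in hepatocytes, and was higher in T/NK cells in each library. The ratio of background to hepatocyte level was therefore not the same for all 4 genes within a library.

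Some clusters of nuclei could not be named. They were deep, with median UMIs of 3579 to 3983, and held Mup4 at 225%, 241%, 107% and 163% of the hepatocyte-like level in DA 1, DA 2, LEW 1 and LEW 2. Their nuclei are in none of the hepatocyte values above.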

How the data were processed

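The deposited files hold raw counts of UMIs per gene entry and barcode or spot, made by the authors with Cell Ranger 3.1.0 (cells, nuclei) and Space Ranger 1.1.0 (spots), as the submitters' processing notes name them, on a rat 6.0 reference. Gene names of the TLH and immune-enriched tables were taken by row from the nuclei feature list. Barcodes were kept at or above 1500 (DA TLH 1), 2000 (other TLH) or 1000 UMIs (nuclei, immune-enriched) and at or under 30%, 20%, 40%, 10% or 50% mitochondrial UMIs (DA TLH 1, DA TLH 2, LEW TLH, nuclei, immune-enriched), after the study's methods. For LEW TLH they state 1500 UMIs, but 2000 leaves the total of TLH cells the study gives, and 1500 is an alternative.

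Cells were clustered with sctransform 0.4.2, 15 principal components, a Harmony correction and Seurat 5.3.0, without the listed urinary protein family genes. A cluster was named from 3 markers among its 30 leading genes against all other clusters. A cluster left unnamed was then compared with the clusters already named as other cell types. It was called hepatocyte-like from 3 hepatocyte markers among its 300 leading genes. The second step was set with cluster counts in hand, and naming by the first alone is an alternative. Scrublet called 0.0183% to 0.0453% of barcodes as doublets in TLH, 0.095% to 0.862% in nuclei and 0.258% to 0.560% in immune-enriched libraries. Doublets were kept in all of them, and leaving out the barcodes with the highest doublet scores is an alternative for the strain and platform fits.

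UMIs were summed per rat and tested with edgeR 4.0.16 (TMM, filterByExpr, quasi-likelihood, Benjamini-Hochberg 0.05). DESeq2 1.42.0 was an alternative. The scripts were tested on simulated counts with a set spread between rats and 200 genes changed. At a log2 change of 1, edgeR recovered 0% (strain, TLH), 15% (strain, nuclei), 71.5% (zone, nuclei), 70.5% (zone, TLH) and 73% (platform). For strain by zone and strain by platform it was 1% and 0.5%. At a log2 change of 2 the recovery was 64.5% to 100% over the fits. Differences of the smaller size can therefore go uncalled in the strain and interaction fits. Replicate numbers did not pair the rats. With 1 library per rat, p-values of the strain and platform fits measure the spread between these rats. In the zone and strain-by-zone fits the rat is a block. Their p-values measure how far the zone difference varies between these rats. Counting intervals cover counting error only.

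The genes and lists were chosen with earlier results of these data known. Named genes are the 4, list genes past the threshold, and the 5 genes nearest to each over spots. The levels of AABR07048474.1, LOC680406 and Alb are also given, and whether the first 2 are family copies is not known here. 1 gene of the hormone signalling list is counted but not reported here.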

Additional observations from a re-analysis of the deposited data

Results flagged for a closer look

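The pericentral-minus-periportal log2 difference in nuclei differed between the strains, by the test of the interaction, for Mup4 (1.63 greater in DA), LOC259244 (1.78 greater in DA) and LOC100360095 (1.33 greater in DA). These values were not called when the zone groups were formed within each of 10 bins of nuclei by UMIs, nor without LEW nuclei 1. That of LOC100360095 was not called without LEW nuclei 2 either.

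Barcodes under 1000 UMIs, which enter no comparison, also carried the 4 genes, which is given as values alone. Their sum was at least 2.13% of the UMIs of such barcodes in each TLH library and at least 1.60% in each nuclei library.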

How the results depend on the processing

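Over the alternatives to the fits and levels of the 4 genes, 347 values kept their direction and call or, where there was no test, moved by less than the spread between replicates, 30 turned in direction, 13 gained a call, 12 lost one and 14 values without a test moved by more than the spread between replicates. The alternatives by stricter naming of clusters, crossed block, depth bins, deep hepatocytes, scaling by total UMIs and left-out rats of the interactions were chosen after seeing the data. Except where a construction is named, the cause was not tested.

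Stricter naming, which kept fewer clusters, gave DA-minus-LEW values of 0.79 for Mup4, 0.20 for Rup2 and 0.28 for LOC100360095 in TLH cells and of 0.32 for Rup2 and 0.29 for LOC100360095 in nuclei. It gave nuclei-minus-TLH values of 1.31 (Mup4), 1.05 (LOC259244), 0.36 (Rup2) and 0.27 (LOC100360095) with 3226 genes called against 7597. Total UMIs gave 0.92 for Mup4 and 0.24 for LOC259244 there, 129 strain-by-zone calls against 85, and 0.023 for Rup2 in the strain-by-platform fit. LOC259244 was called between platforms by DESeq2 (−0.50), with all barcodes (−0.61), with a replicate block (−0.58) and without LEW nuclei 1 (−0.67).

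Rat numbers did not pair the rats (correlation of deviations −0.15 in TLH, 0.08 in nuclei). A replicate block gave 201 strain calls in TLH against 402 and 441 in nuclei against 122, and changed no other call of the 4 genes. The crossed pairing gave 905 calls in TLH, with Mup4 called at 0.62. Without the replicate block the zone fits called 110 genes in nuclei against 2788 and 5 in TLH against 498, with Rup2 at 1.00 in nuclei and Mup4 at 0.59, LOC259244 at 0.37 and LOC100360095 at 0.37 in TLH, none called.

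DESeq2 called 215 genes by strain in nuclei, 1690 and 255 by zone in nuclei and TLH, 227 by strain and zone and 10 by strain and platform (0 in edgeR), called Rup2 by zone in TLH (0.19) and by strain and zone (0.92), and with its size factors or test turned the strain-by-platform values of LOC259244 to 0.0155 and Rup2 to 0.0072. No filter on low counts gave 1124 (TLH) and 420 (nuclei) strain calls, 182 by strain and zone and 24 by strain and platform, and Mup4 at 0.61 in TLH. All barcodes gave 607 strain calls in TLH. Dividing barcodes at the median score gave 273 zone calls in TLH and Visium differences of 0.94 (Mup4), 0.77 (LOC259244), 0.11 (Rup2) and 0.54 (LOC100360095), which are smaller by construction. Groups within 10 depth bins left 1 strain-by-zone call, with 1.23 (Mup4), 1.22 (LOC259244) and 0.84 (LOC100360095).

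For the deep hepatocytes, the midpoints of the pooled levels of the 2 libraries were 142 CPM for Mup4, 1062 for LOC259244, 9628 for Rup2 and 2786 for LOC100360095. Without mitochondrial genes LOC100360095 had a median of 8305 CPM over the TLH libraries, with all barcodes Mup4 had 540.1 CPM in nuclei, and thinned to 1000 UMIs Mup4 in other nuclei classes had 41.2% of the hepatocyte level against 72.9%.

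Leaving out 1 rat at a time gave 80 to 424 strain calls in TLH, with Mup4 at 0.33 to 0.95, LOC259244 at 0.16 to 0.50, Rup2 at −0.33 to 0.16 and LOC100360095 at −0.24 to 0.041, and 83 to 633 in nuclei, with Mup4 at −0.16 to 0.27, LOC259244 at −0.064 to 0.70, Rup2 at −0.66 to 0.61 and LOC100360095 at −0.74 to 0.40. Zone calls were 488 to 2536 in nuclei, with Rup2 at 0.81 to 1.23, and 197 to 769 in TLH, with Rup2 at 0.14 to 0.24 and called without DA TLH 2. Platform calls were 7141 to 8146, with Mup4 at −0.044 to 0.25 and LOC259244 at −0.67 to −0.40, called without LEW nuclei 1. Strain-by-zone calls were 2 to 1231, with Mup4 at 1.12 to 2.21, LOC259244 at 1.48 to 2.17, Rup2 at 0.62 to 1.18 (called without DA nuclei 2) and LOC100360095 at 1.08 to 1.62. Strain-by-platform calls were 0 to 6, with LOC259244 at −0.37 to 0.37, Rup2 at −0.55 to 0.70 and LOC100360095 at −0.62 to 0.50.

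With 2 rats per strain and platform, 1 for deep hepatocytes, and shallow TLH cells and nuclei, precision is limited.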
